A study of Mus musculus with 6 samples.

Results

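The smooth muscle contractile genes are 10 genes, Acta2, Actg2, Myh11, Tagln, Cnn1, Des, Lmod1, Mylk, Smtn and Synpo2, whose products form or regulate the contractile filaments of smooth muscle. They were taken by gene symbol from a deposited table of 18477 genes, and 10 of 10 passed the filter on low counts that left 14579 genes for testing. Their summed share of a library's counts was used as a measure of how much muscle RNA the library held. In bulk tissue, fewer muscle cells and less contractile RNA per muscle cell cannot be told apart.

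The study asked whether the gut bacterium *Bacteroides vulgatus* (*B. vulgatus*) changes colitis in mice. Colon RNA was sequenced from 3 mice of the DSS group and 3 of the DSS+BV group. All were male C57BL/6 mice, 6 to 8 weeks old, and all received 2% dextran sulfate sodium (DSS), an agent that damages the colonic epithelium and causes colitis, in the drinking water from day 8 to day 14. The DSS group was gavaged daily with PBS for 14 days. The DSS+BV group received *B. vulgatus* in PBS on the same schedule. Both groups had colitis, and no library from untreated colon was analysed here, so each comparison is between treated and untreated colitis and not with healthy muscle. The labels give the tissue as colon, with no wall layer or segment.

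Smooth muscle shortens when myosin filaments pull on actin filaments. A rise in calcium activates myosin light chain kinase, the kinase phosphorylates the myosin light chain, and a phosphatase reverses the step. In the colon, the circular and longitudinal layers of the muscularis propria and the thin muscularis mucosae carry this machinery, and vascular muscle, pericytes and myofibroblasts share part of it. Serum response factor and its cofactor myocardin drive many of these genes through a DNA element known as the CArG box.

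Library totals lay between 15293276 and 17254343 expected counts. The 10 genes took 0.380%, 0.416% and 0.456% of all expected counts in DSS libraries 1 to 3, against 0.435%, 0.387% and 0.280% in DSS+BV libraries 1 to 3. The shares of DSS+BV 1 and DSS+BV 2 lay inside the DSS range, and that of DSS+BV 3 lay below every other library. The exact 95% binomial interval was 0.277% to 0.282% in DSS+BV 3 and 0.377% to 0.383% in DSS 1, the next lowest. These intervals cover counting error only. The group means were 0.417% ± 0.0381 (SD, n = 3) for DSS and 0.367% ± 0.0796 (SD, n = 3) for DSS+BV, a difference of -0.0499 percentage points. The groups overlapped, and the highest library held 1.63 times the share of the lowest.

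**Figure D1:**
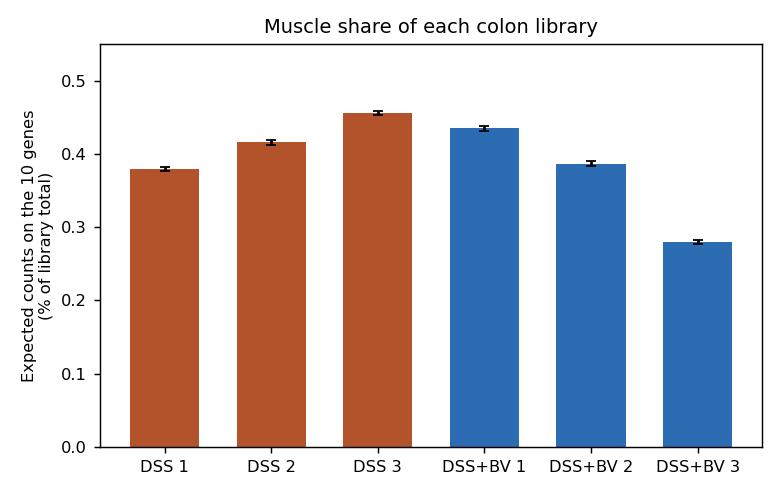
Bars give the percentage of each library's expected counts assigned to the 10 smooth muscle contractile genes, for 3 DSS (brown) and 3 DSS+BV (blue) libraries, with exact 95% binomial intervals. DSS+BV 3, at 0.280%, lies below the other 5 libraries, which run from 0.380% to 0.456%.

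The mean log2 CPM (CPM, counts scaled to a common library size with TMM factors) of the 10 genes gave the same order at its low end. It was 7.95, 8.19 and 8.30 in the DSS libraries and 8.28, 8.15 and 7.67 in the DSS+BV libraries. The group means differed by -0.11 on the log2 scale, less than the SD of either group (0.18 and 0.32). Without DSS+BV 3 the difference was 0.07, and with the median of the 10 genes in place of their mean it was 0.09, so its sign depended on that library and on the summary. The difference in share without DSS+BV 3 was -0.00611 percentage points.

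Across genes, levels were compared as CPM per kb of the longest protein-coding transcript. Tagln had the highest mean level over the 6 libraries, 423.6 ± 112 CPM per kb (SD, n = 6), followed by Acta2 at 339 ± 67.3 and Actg2 at 299 ± 87.7. Neighbours in this order were not separated in every library, since Tagln exceeded Acta2 in 5 of 6 libraries and Acta2 exceeded Actg2 in 4 of 6. The order of the actins differed by group, with 376 ± 63.9 CPM per kb (SD, n = 3) for Acta2 against 248 ± 18.3 for Actg2 in the DSS group, and 302 ± 55.9 against 349.6 ± 106 in the DSS+BV group, where DSS+BV 1 and DSS+BV 2 had more Actg2 than Acta2 per kb. Myh11 (134 ± 12.9), Des (130 ± 31.1) and Cnn1 (126 ± 37.6) formed a middle group in which each exceeded the next in 4 of 6 libraries. Mylk (44.6 ± 5.62), Smtn (30.5 ± 3.28), Lmod1 (13.1 ± 3.10) and Synpo2 (8.62 ± 1.53) followed, each above the next in 6 of 6 libraries. By mean CPM without correction for length, Myh11 ranked 85 and Lmod1 4517 of the 14579 genes tested.

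No member met the study's thresholds of an adjusted p below 0.05 and an absolute log2 fold change above 1. The edgeR quasi-likelihood test with Benjamini-Hochberg adjustment called 0 of 10, where 0.0892% of all tested genes were called, and 0 of 10 had an unadjusted p below 0.05, where 12.5% of all tested genes did. DESeq2 also called 0 of 10, with 2.01% of its tested genes called. The 2 groups overlapped for 10 of 10 members, whereas 17.6% of all tested genes had groups that did not overlap. The log2 fold change of DSS+BV against DSS was below 0 for 7 members and above 0 for 3, with a median of -0.11 beside -0.01 over all tested genes, of which 51.5% were below 0.

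**Figure D2:**
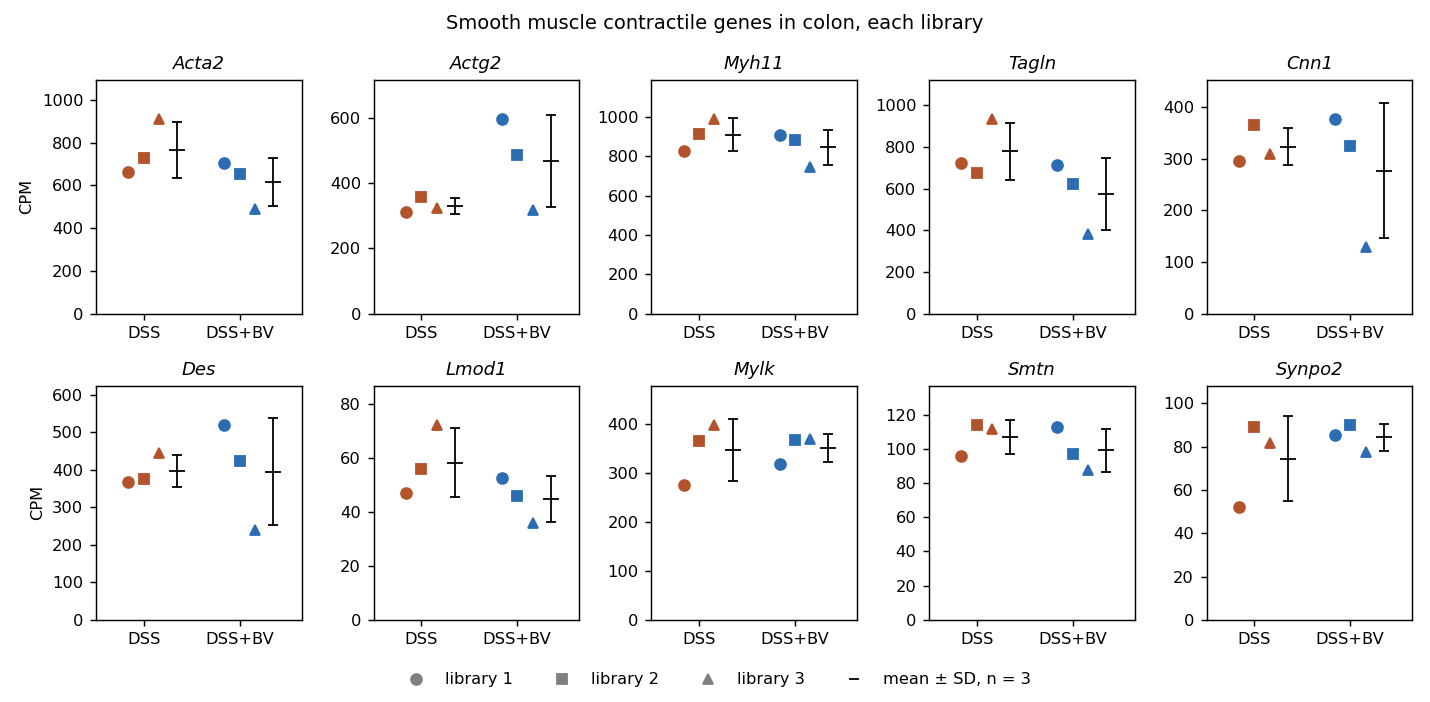
Each panel gives the CPM of a smooth muscle contractile gene in 3 DSS (brown) and 3 DSS+BV (blue) libraries, with the mean and SD (n = 3) in black; every axis starts at 0. DSS+BV 3 (blue triangle) is the lowest of the 6 libraries for 7 genes, and DSS 1 (brown circle) is the lowest for Actg2, Mylk and Synpo2.

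Among the thin filament proteins, the actins went in opposite directions without passing the test. Acta2, the smooth muscle alpha actin that is also made by pericytes and myofibroblasts, lies on chromosome 19 (GRCm38.p6, 34240336 to 34255585). Its levels were 660, 727 and 911 CPM in DSS libraries 1 to 3, and the DSS+BV libraries had 704, 655 and 487 CPM in the same order. DSS 3 was the highest library and DSS+BV 3 the lowest, and the other 4 lay between 655 and 727 CPM. In edgeR the log2 fold change was -0.32 (SE 0.21, 95% interval -0.82 to 0.19, edgeR adjusted p = 0.570), and it was -0.17 both without DSS 3 and without DSS+BV 3.

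Actg2, the gamma actin of visceral smooth muscle, lies on chromosome 6 (GRCm38.p6, 83512909 to 83536251). It was at 311, 358 and 323 CPM in the DSS libraries and at 596, 485 and 317 CPM in the DSS+BV libraries. DSS+BV 1 and DSS+BV 2 lay above every DSS library, and DSS+BV 3 lay within the DSS range. The log2 fold change was 0.50 (SE 0.24, 95% interval -0.08 to 1.07), with an unadjusted p of 0.0824 and an adjusted p of 0.456 in edgeR. With a library left out it ranged from 0.29 without DSS+BV 1 (edgeR unadjusted p = 0.262, adjusted p = 0.591) to 0.71 without DSS+BV 3 (edgeR unadjusted p = 0.00802, adjusted p = 0.584). Actg2 had the smallest p of the 10 members and the only one of their log2 fold changes above 0.20 in the comparison with all 6 libraries.

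Tagln encodes transgelin, an actin-binding protein of smooth muscle, on chromosome 9 (45929628 to 45936058). Its levels were 723, 677 and 935 CPM in the DSS libraries and 714, 623 and 382 CPM in the DSS+BV libraries. DSS+BV 2 and DSS+BV 3 lay below the DSS range, and DSS+BV 1 lay inside it. Tagln had a log2 fold change of -0.44 (SE 0.27, 95% interval -1.08 to 0.20, edgeR adjusted p = 0.538), which was -0.21 without DSS+BV 3, -0.29 without DSS 3 and -0.62 without DSS+BV 1.

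Cnn1 encodes calponin 1, which binds actin and restrains the myosin ATPase, on chromosome 9 (22099221 to 22109221). It was at 296, 365 and 310 CPM in the DSS libraries and at 377, 324 and 129 CPM in the DSS+BV libraries. The DSS+BV libraries held both the highest and the lowest value, a 2.93-fold range that was the widest of the 10 members. The log2 fold change was -0.23 (SE 0.38, 95% interval -1.13 to 0.68, edgeR adjusted p = 0.831), and it was 0.12 without DSS+BV 3.

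Lmod1, leiomodin 1, nucleates actin filaments in smooth muscle and lies on chromosome 1 (135324813 to 135368065). It was at 47.0, 55.8 and 72.4 CPM in the DSS libraries and at 52.7, 45.9 and 36.0 CPM in the DSS+BV libraries. DSS+BV 2 and DSS+BV 3 lay below the lowest DSS library and DSS 3 stood highest. Lmod1 had a log2 fold change of -0.38 (SE 0.22, 95% interval -0.90 to 0.13, edgeR adjusted p = 0.510), and the change was -0.20 without DSS 3 and -0.24 without DSS+BV 3.

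The motor and its kinase had log2 fold changes near 0. Myh11, the smooth muscle myosin heavy chain and the most specific marker of the mature cell, lies on chromosome 16 (14194527 to 14292188). It was at 826, 912 and 991 CPM in the DSS libraries and at 910, 880 and 744 CPM in the DSS+BV libraries. The 6 values lay within 1.33-fold of each other, and the log2 fold change was -0.11 (95% interval -0.50 to 0.28, edgeR adjusted p = 0.812).

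Mylk, the myosin light chain kinase, lies on chromosome 16 (34745199 to 35002436), and a non-muscle isoform of the same gene is made by epithelium and endothelium. It was at 276, 365 and 398 CPM in the DSS libraries and at 318, 367 and 369 CPM in the DSS+BV libraries, so that the DSS+BV libraries all lay inside the DSS range. The log2 fold change was 0.02 (95% interval -0.41 to 0.45, edgeR adjusted p = 0.975), and its sign turned without DSS 1 (-0.12), without DSS+BV 2 (-0.01) and without DSS+BV 3 (-0.01).

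The remaining 3 members belong to the cytoskeleton that anchors the filaments. Des, desmin, the intermediate filament protein of muscle, lies on chromosome 1 (75360292 to 75368579). It was at 367, 376 and 445 CPM in the DSS libraries and at 519, 424 and 239 CPM in the DSS+BV libraries. DSS+BV 1 was the highest library and DSS+BV 3 the lowest. The log2 fold change was -0.01 (95% interval -0.69 to 0.68, edgeR adjusted p = 0.993), and it was 0.26 without DSS+BV 3 and 0.08 without DSS 3.

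Smtn, smoothelin, a marker of contractile smooth muscle cells, lies on chromosome 11 (3517522 to 3539292). It was at 95.8, 114 and 112 CPM in the DSS libraries and at 113, 96.8 and 87.8 CPM in the DSS+BV libraries. This was the narrowest range of the 10 members, 1.30-fold, with a log2 fold change of -0.11 (95% interval -0.46 to 0.24, edgeR adjusted p = 0.774).

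Synpo2, an actin-bundling protein of Z-discs and dense bodies, lies on chromosome 3 (123076519 to 123236168). It was at 52.2, 89.2 and 81.8 CPM in the DSS libraries and at 85.2, 90.0 and 77.4 CPM in the DSS+BV libraries. DSS 1 stood below the other 5 libraries. Synpo2 had a log2 fold change of 0.18 (95% interval -0.33 to 0.69, edgeR adjusted p = 0.753), and it was -0.02 without DSS 1.

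**Figure D3:**
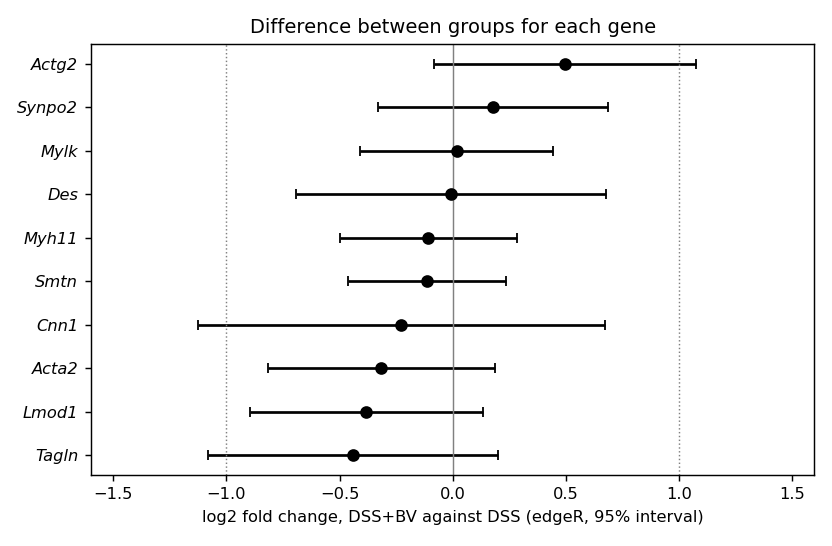
Points give the edgeR log2 fold change of DSS+BV against DSS for each smooth muscle contractile gene, with 95% intervals; dotted lines mark an absolute change of 1. The interval of every member includes 0, from Tagln at -0.44 to Actg2 at 0.50.

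The intervals bound the size of change that these libraries leave possible. For 7 members both bounds lay within 1 on the log2 scale. The lower bound passed -1 for Tagln (-1.08) and Cnn1 (-1.13), and the upper bound passed 1 for Actg2 (1.07).

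The low end of the DSS+BV group was mostly the same library. DSS+BV 3 was the lowest library for 7 of 10 members, against 20.1% of all tested genes. The exceptions were Actg2, Mylk and Synpo2, which were lowest in DSS 1. DSS 3 was the highest library for 5 of 10 members, against 29.8% of all tested genes.

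The proportions among the members were compared within libraries, which removes the level of muscle RNA that they share. Each member's log2 CPM was set against the mean log2 CPM of the other 9 in the same library. For Actg2 this log2 ratio was 0.36, 0.32 and 0.04 in the DSS libraries and 1.04, 0.85 and 0.71 in the DSS+BV libraries. Every DSS+BV library lay above every DSS library, DSS+BV 3 included. The difference was 0.63 on the log2 scale, a 1.54-fold higher ratio, and it stayed between 0.52 and 0.71 when each library was left out in turn.

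Tagln, Lmod1 and Acta2 had ratios that were lower in every DSS+BV library. For Tagln the log2 ratio was 1.72, 1.34 and 1.74 in the DSS libraries and 1.33, 1.25 and 1.01 in the DSS+BV libraries, a difference of -0.40 in which DSS 2 and DSS+BV 1 nearly met. For Lmod1 it was -2.66, -2.65 and -2.36 in the DSS libraries against -2.85, -2.92 and -2.77 in the DSS+BV libraries, a difference of -0.29. For Acta2 it was 1.57, 1.46 and 1.70 against 1.31, 1.33 and 1.40, a difference of -0.23. The groups did not overlap for 4 of 10 members, while 10.5% of all tested genes did not overlap when set against the mean of the members (3.29% higher and 7.18% lower in DSS+BV). With 3 libraries against 3, the smallest p that an exact two-sided permutation test allows is 0.1, so no single ratio could pass 0.05 in that test.

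**Figure D4:**
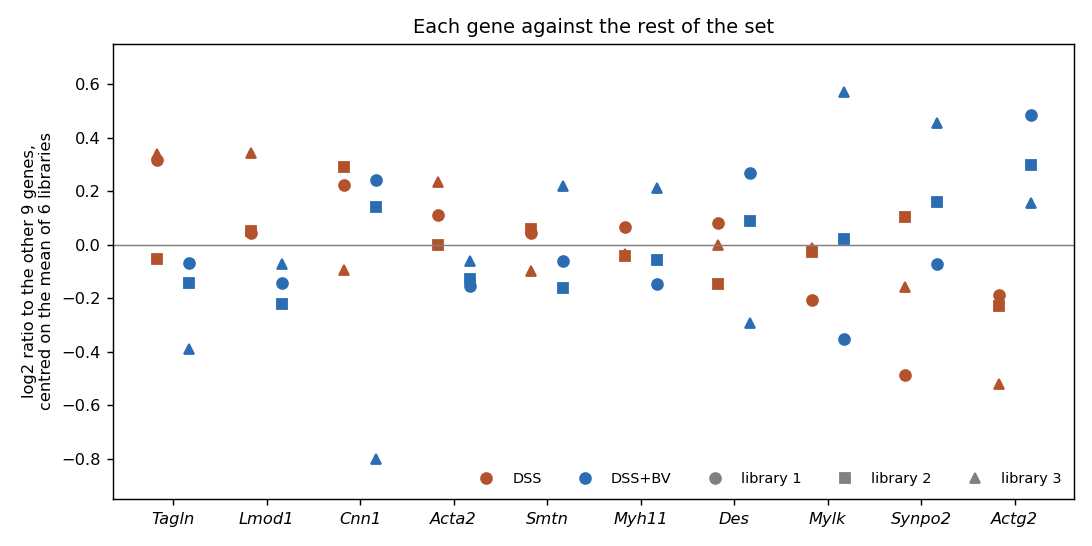
Points give the log2 ratio of each smooth muscle contractile gene to the mean of the other 9 in the same library, centred on the mean of the 6 libraries (DSS brown, DSS+BV blue). Every DSS+BV point lies above every DSS point for Actg2, and below it for Tagln, Lmod1 and Acta2.

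The ratios are not independent of each other, since a shift in Actg2 moves the reference of the other 9. Of the 45 pairs of members, 11 had a ratio whose groups did not overlap, where 18% of all pairs of tested genes did not overlap. Of these 11, 7 were among the 9 pairs with Actg2, whose ratio to all other tested genes did not overlap for 21.4% of them. With Mylk and Synpo2 the ratio of Actg2 overlapped. Without Actg2, the only pairs that did not overlap were Acta2 with Myh11, Tagln with Des, Lmod1 with Smtn and Lmod1 with Synpo2. The most direct pair, chosen after its values had been seen, was that of the 2 smooth muscle actins. Actg2 divided by Acta2 was 0.471, 0.493 and 0.354 in the DSS libraries and 0.847, 0.740 and 0.651 in the DSS+BV libraries. Actg2 thus made up 30.4% ± 3.69 (SD, n = 3) of the CPM of the pair in the DSS group and 42.6% ± 3.22 (SD, n = 3) in the DSS+BV group. The ratio of Des to Tagln, also chosen after its values had been seen, was 0.508, 0.556 and 0.476 in the DSS libraries and 0.727, 0.681 and 0.626 in the DSS+BV libraries, without overlap.

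Shared sequence between actins was limited over stretches of 50 bases, a length set for the search. Of all 50-base words in the Acta2 transcript, 0.352% also occurred in another gene's transcript, among them Actg1 and actin-like predicted genes, and for Actg2 the share was 0%. For Myh11 it was 0.400%, shared with the non-muscle myosins Myh9 and Myh10, for Synpo2 0.0547%, and for the other 6 members 0%. The deposited expected counts of the 10 members were exact whole numbers in all 6 libraries. The words were compared in the sense direction only. In the genome, the span of Tagln overlaps that of the protein-coding gene Pcsk7 over 2480 bases. The strandedness of the library kit is not given in the sources used here, so reads from that stretch cannot be assigned by strand.

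The 4 other actins were not called. Actb, the cytoplasmic beta actin, had a log2 fold change of 0.13 (edgeR adjusted p = 0.831) and Actg1, the cytoplasmic gamma actin, of 0.30 (adjusted p = 0.644). Acta1, the skeletal alpha actin, was at 1.44, 6.53 and 5.94 CPM in the DSS libraries and at 5.21, 13.3 and 15.4 CPM in the DSS+BV libraries, with a log2 fold change of 1.29 (SE 0.63, edgeR adjusted p = 0.456). Actc1, the cardiac alpha actin, was at no more than 1.34 CPM and was not tested.

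The RefSeq promoter table gives 250 bases before to 50 bases after a start of a gene in GRCm38.p6. It had an entry for 7 of the 10 members, and none for Actg2, Myh11 and Tagln. The entry of Mylk (34784700 to 34784999) lies well inside the gene's span, not at its outer end. A perfect CArG box (2 C, 6 bases that are all A or T, then 2 G, which reads as the same motif on both strands) was present in 0 of these 7 and in 1.63% of 32851 promoters. With 1 deviation allowed among the 6 central bases, a search added after the first, 1 of 7 members had a match, Acta2, against 9.98% of all promoters. Acta2 had 2 matches, as did 0.822% of all promoters, and they are shown because Acta2 is the actin set beside Actg2 in the ratios. Both lie on the minus strand of chromosome 19, 84 and 34 bases before the start used by the table, within exon 1 of the GENCODE vM21 transcript Acta2-201. Capitals mark the matched 10 bases, with 10 bases on either side.
Acta2, chr19:34255438-34255467: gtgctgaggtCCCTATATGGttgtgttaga
Acta2, chr19:34255388-34255417: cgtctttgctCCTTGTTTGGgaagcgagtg

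Beyond the 10 members, 77 genes of the same apparatus were followed in 6 lists, and 76 were tested. EdgeR called 0 of the 76 and DESeq2 called 2, Cald1 and Ryr2, both lower with *B. vulgatus*, where DESeq2 called 2.01% of all the genes it tested. At an unadjusted p below 0.05, 15 were lower and 1 was higher, where 9.12% of all tested genes were lower and 3.40% higher. The groups did not overlap for 17 lower and 3 higher genes, against 11.3% and 6.37% of all tested genes. Of the 76, 55 had a log2 fold change below 0 and 21 above, with a median of -0.22.

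Of the lists, the contractile and cytoskeletal partners (19 genes) lay closest to the members' profile over the libraries. Their median root mean square difference was 0.208 in centred log2 CPM, where a gene with no variation over the libraries would be at 0.221. As a list, these partners were thus little closer to the members than such a gene. Their median log2 fold change was -0.23, and 14 of 19 were lowest in DSS+BV 3. Cald1, caldesmon, an actin-binding regulator also made outside muscle, was at 362, 489 and 502 CPM in the DSS libraries and at 259, 235 and 168 CPM in the DSS+BV libraries. The groups did not overlap, with a log2 fold change of -1.03 (SE 0.22, edgeR adjusted p = 0.219, DESeq2 adjusted p = 0.00462). Flna, the actin cross-linker filamin A and the most abundant of the list, had a log2 fold change of -0.43 (edgeR adjusted p = 0.398).

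The calcium handling and channel genes, which supply the trigger for contraction, had a median of -0.39 over 14 genes, with 5 lower and 1 higher at an unadjusted p below 0.05. Cacna1c, the pore of the L-type calcium channel, was at 42.3, 54.5 and 53.5 CPM in the DSS libraries and at 30.0, 29.8 and 24.8 CPM in the DSS+BV libraries. All DSS+BV values lay below all DSS values, with a log2 fold change of -0.83 (SE 0.16, edgeR adjusted p = 0.186, DESeq2 adjusted p = 0.00464), which did not reach the fold threshold. Ryr2, a calcium release channel, had a log2 fold change of -1.27 (edgeR adjusted p = 0.287, DESeq2 adjusted p = 0.0346).

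Receptors and the cyclic GMP pathway, which mediate nerve input and relaxation, had a median of -0.64 over 9 genes. Mrvi1, a substrate of the cyclic GMP kinase that damps calcium release, was at 48.9, 63.8 and 66.7 CPM against 37.2, 37.0 and 37.4 CPM. Its log2 fold change was -0.68 (SE 0.15, edgeR adjusted p = 0.237, DESeq2 adjusted p = 0.0270), which did not reach the fold threshold. Pde5a, the phosphodiesterase that breaks down cyclic GMP, was at -0.07 (edgeR adjusted p = 0.861). The dystrophin complex and integrins, which tie the filaments to the matrix, had a median of -0.26 over 10 genes. Sgcb, beta-sarcoglycan, had a log2 fold change of -0.86 (edgeR adjusted p = 0.245, DESeq2 adjusted p = 0.0220), below the fold threshold. Itgb1, the integrin beta 1 subunit, was at -0.36 (edgeR adjusted p = 0.399, DESeq2 adjusted p = 0.258).

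The transcription regulators had a median of -0.08 over the 13 tested of 14 genes, Barx1 being too low to test. Myocd, myocardin, the cofactor that drives the contractile programme, was at 15.6, 13.7 and 13.9 CPM in the DSS libraries and at 11.7, 11.6 and 8.60 CPM in the DSS+BV libraries. The groups did not overlap, with a log2 fold change of -0.43 (SE 0.20, edgeR adjusted p = 0.435). Srf, serum response factor, its DNA-binding partner, was at -0.03 (edgeR adjusted p = 0.923). Klf4, a repressor of the contractile genes that is also abundant in colonic epithelium, was at 0.23 (edgeR adjusted p = 0.724), and Foxf1, a mesenchymal factor, at -0.50 (edgeR adjusted p = 0.389).

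The 10 genes whose pattern over the 6 libraries lay closest to that of the members were found among 14569 other tested genes, by the root mean square difference of centred log2 CPM from the mean centred log2 CPM of the members. Ppp1r12b, a targeting subunit of the myosin phosphatase that is abundant in muscle, was the closest at 0.0487, where the median gene was at 0.378. It was at 131, 155 and 163 CPM in the DSS libraries and at 151, 143 and 101 CPM in the DSS+BV libraries, with the same highest and lowest library as the members' mean. Btc, Dipk2a, Rnft2, Jmjd1c, Arhgap42, Fnip2, Lgalsl, Spry2 and Bcl2l14 followed, up to 0.0769. None of these 9 was in a gene list used here, and whether any of them is a muscle gene was not examined. Measured against the mean of the other 9, Myh11 (0.114), Smtn (0.125) and Acta2 (0.136) were the members closest to the rest, and Cnn1 (0.379) and Actg2 (0.344) the farthest.

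Markers of other cell types showed how the muscle level stood against the rest of the tissue. Of the 10 skeletal muscle genes, Myh1, Myh4, Tnnc2 and Mb were at no more than 0.124 CPM in any library, Tnnt3, Myh2, Mylpf, Tnni2 and Actn3 reached between 0.466 and 1.11 CPM in their highest library, and Ckm reached 10.8 CPM. Of 98 genes in 11 lists of other cell types, 86 were tested. EdgeR called 5, all neutrophil genes lower in the DSS+BV group (S100a8, S100a9, Cxcr2, Retnlg and Mmp8), where it called 0.0892% of all tested genes. DESeq2 called 20, where it called 2.01% of all the genes it tested. Over the 8 neutrophil genes the median log2 change was -3.43. With any library left out, edgeR called between 0 and 3 of the 86, where over all tested genes it called 0 to 3 lower and 0 to 4 higher. Among the skeletal muscle genes 3 of 10 were tested, with a median of 0.33, and Ckm, muscle creatine kinase, was at 4.01, 5.47 and 3.79 CPM against 5.21, 8.47 and 10.8 CPM (log2 fold change 0.88, edgeR adjusted p = 0.378).

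Most lists of other non-epithelial cells had a median farther below 0 than that of the members (-0.11). The median log2 fold change was -1.81 for 12 enteric neuron genes, -0.99 for 6 enteric glia genes, -0.82 for 10 fibroblast genes, -0.95 for 4 mesothelium genes, -0.68 for 9 pericyte and vascular muscle genes, -0.60 for 10 endothelium genes and -0.81 for 10 leukocyte genes. For interstitial cells of Cajal, the pacemakers that lie between the muscle layers, it was -0.09 over 4 genes. Among pericyte genes Abcc9, a subunit of a vascular potassium channel, was at 122, 168 and 148 CPM against 48.1, 62.4 and 44.9 CPM, without overlap (log2 fold change -1.50, edgeR adjusted p = 0.0833). DESeq2 called Abcc9 (adjusted p = 4.52e-08).

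Enteric neuron genes varied over a wider range within the DSS group than the members. All 12 were highest in DSS 3, and their mean log2 CPM was 2.40, 3.50 and 4.75 in DSS libraries 1 to 3, while the muscle level in the same libraries ran from 7.95 to 8.30. In the DSS+BV libraries the neuron level was 1.78, 1.94 and 2.34, with the highest value in DSS+BV 3, the library lowest in muscle. Thbs4, the most abundant gene of the interstitial cell list, was at 465, 459 and 353 CPM in the DSS libraries. In the DSS+BV libraries Thbs4 was at 627, 255 and 32.6 CPM, lowest in DSS+BV 3. Of the 4 genes in that list, 2 were lowest in DSS+BV 3. Kit, of the same list, was at 25.1, 92.9 and 48.2 CPM in the DSS libraries. In the DSS+BV libraries Kit was at 50.4, 56.2 and 97.4 CPM, highest in DSS+BV 3.

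Epithelial genes lay on the other side. All 10 had a log2 fold change above 0, with a median of 0.32, and 4 had an unadjusted p below 0.05 in edgeR, where 48.5% of all tested genes were above 0 and 3.40% were higher at that p. The mean log2 CPM of the members minus that of the epithelial list was -1.77, -1.68 and -1.72 in the DSS libraries and -1.91, -2.27 and -2.48 in the DSS+BV libraries. Relative to epithelium, muscle RNA was thus lower in every DSS+BV library than in every DSS library, by 0.49 on the log2 scale. Most of this lay in the epithelial list, whose mean level differed by 0.38, against -0.11 for the members. Neither the share nor the level of the members separated the groups. Against the members' mean level, 10.5% of all tested genes did not overlap, and 3.29% were higher in DSS+BV. The part of these cell type differences in the values of the members was not tested.

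**Figure D5:**
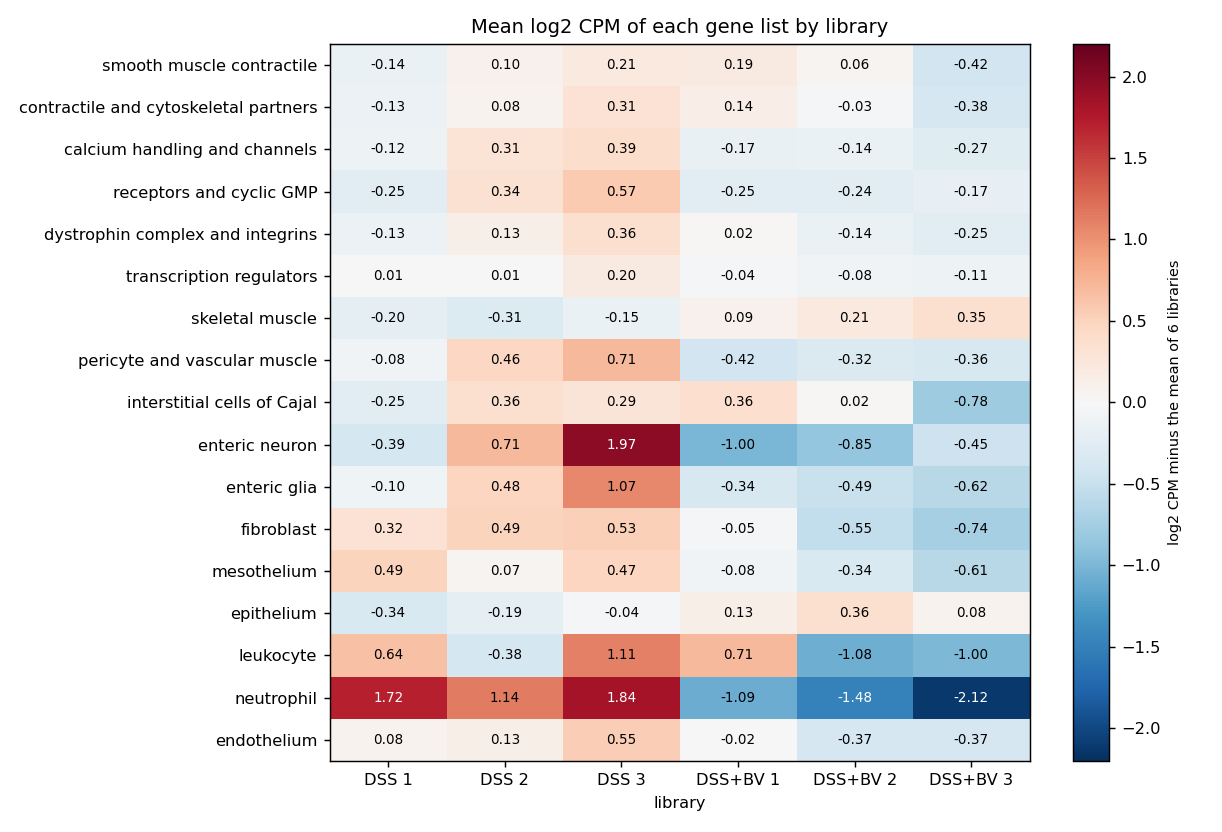
Each cell gives the mean log2 CPM of a gene list in a library minus its mean over the 6 libraries, red for higher and blue for lower. The smooth muscle contractile row runs from -0.42 in DSS+BV 3 to 0.21 in DSS 3, and the neutrophil and enteric neuron rows span more than the muscle rows.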

How the data were processed

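Colon RNA-seq libraries of 3 DSS and 3 DSS+BV mice were analysed. Per the labels and the file headers, the authors deposited RSEM expected counts per gene, not scaled between libraries. The submitters' processing notes name HISAT2 2.1.0, Bowtie2 2.2.5, RSEM 1.2.8 and GRCm38.p6. Expected counts were rounded to whole numbers, and libraries held 15293276 to 17254343.

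Genes were kept with filterByExpr (minimum count 10, minimum total 15), and counts were scaled with TMM factors. The groups were tested with edgeR (version 4.0.16, R 4.3.3) by its quasi-likelihood method, and p-values of 14579 genes were adjusted by Benjamini-Hochberg. A call needed an adjusted p below 0.05 and an absolute log2 fold change above 1. The biological coefficient of variation was 32.1%. Levels are TMM-scaled CPM, and log2 CPM used a prior count of 2. The test was checked on simulated data. DESeq2 1.42.0, other scaling factors and filters, the replicate number as a block and each library left out in turn were alternatives.

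The members and all gene lists were chosen with earlier results of these data known. Besides the members, the text names in each list the most abundant gene, the tested gene with the smallest p and every called gene, with Myocd, Srf, the 4 other actins and the 10 genes closest in profile. Some genes and 1 of the 6 partner lists are not reported by name here. Irag1 was matched by synonym to Mrvi1. The thresholds are those of the study, which took its adjusted p-values from DESeq2, used here as an alternative. Coordinates are from RefSeq and transcript lengths from GENCODE, both for GRCm38. Figures were drawn with matplotlib 3.10.9.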

Additional observations from a re-analysis of the deposited data

How the results depend on the processing

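The number of members called stayed at 0 in all 13 alternatives, and the counts over all genes were 13 in edgeR, 325 with DESeq2, 0 with the replicate block and 0 to 4 higher or 0 to 3 lower with a library left out. For the partner lists DESeq2 called 2 genes, and the other 12 alternatives called 0. For the lists of other cell types, whose alternatives were added after seeing the data, DESeq2 called 20 genes, the replicate block 0, and leaving out each library between 0 and 3, against 5. Of 130 alternative values for the members' log2 fold changes, 119 kept their sign and 11 turned, none of them called. Des was 0.012 with DESeq2, 0.0022 with RLE factors and 0.020 with every gene that had a count, and lay between -0.25 and 0.26 when libraries were left out. Mylk was -0.036 with upper-quartile factors and lay between -0.12 and 0.13 when libraries were left out. Tagln (-0.62 to -0.21), Lmod1 (-0.52 to -0.20), Acta2 (-0.41 to -0.17), Myh11 (-0.17 to -0.02) and Smtn (-0.20 to -0.03) kept their sign, as did Actg2 (0.29 to 0.71). Cnn1 lay between -0.50 and 0.12, and Synpo2 between -0.020 (without DSS 1) and 0.34, when libraries were left out. The number of members whose ratio did not overlap was 4 to 6 with a library left out. Groups that do not overlap stay apart when a library is removed, so this count could rise but hardly fall. The share over all tested genes is not given for these settings. Set against the median of the other 9, the ratio difference was -0.19 for Des, -0.58 for Lmod1, -0.32 for Smtn and 0.005 for Synpo2.

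Replicate numbers did not pair the libraries. Deviations of libraries with the same number correlated at 0.267, 0.255 and -0.296. With the replicate number as a block, 0 genes were called over all genes and 0 of the members.

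With 3 libraries a group and a biological coefficient of variation of 32.1%, the members' 95% intervals, which reach to -1.13 (Cnn1) and 1.07 (Actg2) on the log2 scale, bound the changes that these libraries leave possible. The cause of the sign changes was not tested.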
